A study of Mus musculus with 6 samples.

Results

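The genes described here make fat: 35 enzymes, transporters and regulators of fatty acid synthesis, chain elongation and desaturation, glycerol supply and triglyceride assembly. They were chosen by gene symbol from a table of 35976 rows, with earlier results of these data known, and all 35 were found. RNA was sequenced from primary mouse adipocytes with Ppargc1a(fl/fl) alleles, in which loxP sites flank Ppargc1a, the gene for the coactivator PGC-1alpha. All groups carried these alleles, received an adenovirus and then an siRNA, and were fully differentiated. Cre plus knockdown cells (2 libraries) received Cre adenovirus, whose recombinase excises loxP-flanked DNA, and an siRNA against Rbm43, which encodes an RNA-binding protein. Knockdown cells (2 libraries) received GFP adenovirus and the same siRNA, and control cells (2 libraries) received GFP adenovirus and control siRNA. Cre virus with control siRNA was not analysed here. The submitters call the duplicates biological, and no label ties them to separate animals. The p-values below thus reflect only spread between these libraries, partly pooled over genes of similar level. Age, sex, fat depot and the number of mice are likewise not stated in the labels.

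An adipocyte stores energy as triglyceride, which it builds from 3 fatty acids on a glycerol backbone. Part of those fatty acids is made from glucose. Mitochondrial citrate is exported and cleaved to acetyl-CoA, acetyl-CoA is carboxylated to malonyl-CoA, and fatty acid synthase joins the pieces into palmitate with NADPH as reductant. Palmitate is then lengthened and desaturated, activated, and attached to glycerol 3-phosphate by a chain of acyltransferases, with phosphatidate phosphatase and diacylglycerol acyltransferase acting last. The transcription factors SREBP-1 (Srebf1), which follows insulin, and ChREBP (Mlxipl), which follows glucose and works as a dimer with Mlx, are the known activators of many of these genes. In fat, esterification and lipolysis run side by side, and thermogenic adipocytes combine fatty acid synthesis with fatty acid burning.

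Promoter sequence is shown for Thrsp and Mlxipl, the members with the largest rises after Rbm43 siRNA, and for Fasn, the synthase that completes the chain. Sequences are from RefSeq on build GRCm38.p6, written 5′ to 3′ on the gene's strand, from 250 bases before to 50 bases after the listed start, and a position below is that of a match's first base relative to the start. Capitals mark matches to CCAAT or its reverse complement ATTGG, to the E-box CACGTG, and to the sterol regulatory element TCACNCCAC. Thrsp lies on the minus strand at chr7:97417501-97417800, Fasn on the minus strand at chr11:120824498-120824797, and the listed Mlxipl starts lie on the plus strand at chr5:135089640-135089939 and chr5:135106641-135106940.
Thrsp: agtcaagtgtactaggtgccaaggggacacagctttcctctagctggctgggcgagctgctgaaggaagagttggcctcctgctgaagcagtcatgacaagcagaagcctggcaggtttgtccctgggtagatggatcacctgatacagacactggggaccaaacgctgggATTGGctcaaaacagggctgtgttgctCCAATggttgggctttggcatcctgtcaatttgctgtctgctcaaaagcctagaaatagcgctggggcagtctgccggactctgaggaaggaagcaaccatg
Fasn: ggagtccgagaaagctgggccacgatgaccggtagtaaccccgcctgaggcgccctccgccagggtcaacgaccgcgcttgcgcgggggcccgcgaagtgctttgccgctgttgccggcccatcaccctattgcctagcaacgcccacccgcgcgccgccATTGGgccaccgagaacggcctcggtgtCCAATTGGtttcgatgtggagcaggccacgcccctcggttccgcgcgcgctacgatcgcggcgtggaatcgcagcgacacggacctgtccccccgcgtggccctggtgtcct
Mlxipl, upstream start: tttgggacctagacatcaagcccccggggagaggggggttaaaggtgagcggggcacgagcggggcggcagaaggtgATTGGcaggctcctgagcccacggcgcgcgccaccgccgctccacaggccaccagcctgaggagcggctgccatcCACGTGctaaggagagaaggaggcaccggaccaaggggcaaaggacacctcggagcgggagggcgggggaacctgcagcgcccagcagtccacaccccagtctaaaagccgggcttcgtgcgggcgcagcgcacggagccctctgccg
Mlxipl, downstream start: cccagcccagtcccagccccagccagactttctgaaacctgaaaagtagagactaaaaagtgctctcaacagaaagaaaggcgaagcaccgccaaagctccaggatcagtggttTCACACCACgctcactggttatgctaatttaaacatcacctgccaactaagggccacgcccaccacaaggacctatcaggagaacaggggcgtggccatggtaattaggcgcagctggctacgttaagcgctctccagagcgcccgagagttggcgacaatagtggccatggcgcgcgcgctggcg

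Thrsp and Fasn each held CCAAT letters on both strands close to the start, at −79 and −52 in Thrsp, and at −90, −62 and −59 in Fasn, where the last 2 overlap. The upstream Mlxipl window held ATTGG at −173 and CACGTG at −98, and the downstream window held TCACACCAC at −136. RefSeq promoters were found for 28 of the 35 members. Searched on both strands, CCAAT occurred in a window of 18 of those 28 (64.3%), against 41.1% of 27025 genes with a promoter in the table, where a gene with several listed starts counts once. CACGTG occurred in 5 of 28 (17.9%; Elovl5, Mlxipl, Mlx, Lpin2 and Lpin3), against 8.09% of all genes, and TCACNCCAC in Mlxipl alone (3.57%), against 1.44%. The motif TCAAGGTCA, bound by estrogen-related receptors, occurred in 0 of 28 members and in 0.47% of all genes, and the GC box GGGCGG in 16 of 28 (57.1%), against 38.2%. These are letter matches within 300 bases, and they say nothing of binding.

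Libraries held 15775398 to 21961724 reads in genes, and 34 of the 35 members had at least 100 reads in every library. The exception was Mogat1, with 8 reads in its lowest library. All 35 members passed the filter of 10 normalized counts in 2 libraries, as did 14211 genes in all, so no member was lost to it. Rbm43 had 53.8 and 32.5 normalized counts in Cre plus knockdown cells and 43.7 and 46.6 in knockdown cells, against 185 and 224 in control cells. Ppargc1a had 463 and 469 normalized counts in Cre plus knockdown cells and 399 and 423 in knockdown cells, against 163 and 202 in control cells. A count over the whole gene does not check the excision, since the labels do not say which exons lie between the loxP sites. The adipocyte markers Adipoq (adiponectin), Fabp4 and Plin1, named after their values were seen, were abundant in every library, from 7442 normalized counts upward.

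Marker genes of cell types moved with the groups, and their part in the results below was not tested. In bulk RNA, fewer cells of a type and less RNA per cell cannot be told apart. No marker listed was at 0 in every library. The 15 mature adipocyte markers summed to 349430 and 347700 normalized counts in Cre plus knockdown cells and 399520 and 414080 in knockdown cells, against 323400 and 305900 in control cells. The 10 brown adipocyte markers summed to 5211 and 5041 in Cre plus knockdown cells and 8865 and 8831 in knockdown cells, against 4369 and 3859 in control cells. Both sums were highest in knockdown cells. Of the 15 mature adipocyte markers 9 rose and 4 fell after Rbm43 siRNA and 8 fell with Cre virus. Of the 9 brown adipocyte markers that could be tested 8 rose and 7 fell in those comparisons. Between Cre plus knockdown and control cells 6 of them rose and 1 fell. The brown marker under the filter was Zic1, at 0.93 to 4.86 normalized counts. Of all genes tested, 13.5% rose and 9.76% fell after Rbm43 siRNA, and 2.62% rose and 5.88% fell with Cre virus. The shares for Cre plus knockdown against control cells were 8.47% and 6.28%. Between Cre plus knockdown and control cells 4 mature adipocyte markers rose and 6 fell, among them resistin (Retn, −1.72), Adrb3 (−0.77) and Cebpa (−0.60). After Rbm43 siRNA the 4 with the smallest p were Retn (−1.56) and Adrb3 (−0.69), which fell, and Pparg (0.64) and Slc2a4 (0.67), which rose. Preadipocyte and fibroblast markers (14 genes) summed to 754140 to 761150 in Cre plus knockdown cells and 686740 to 718930 in knockdown cells, against 754760 to 762180 in control cells. That sum was above the mature adipocyte sum in every library. Col1a1 alone held 229710 to 271900 of it, so sums of different lists do not compare amounts of cells. Of the 13 preadipocyte and fibroblast markers tested, 0 rose and 5 fell (38.5%) after Rbm43 siRNA. With Cre virus 1 rose and 0 fell, and between Cre plus knockdown and control cells 0 rose and 3 fell (23.1%). Mural and smooth muscle markers (9 genes) summed to 78166 to 81635 in Cre plus knockdown cells and 65333 to 68261 in knockdown cells, against 57109 to 63102 in control cells, with 4 rising after Rbm43 siRNA, 7 with Cre virus and 8 between Cre plus knockdown and control cells. The 13 macrophage markers summed to 2115 to 2507 over all libraries, and the 7 endothelial markers to 253 to 354. Of the macrophage markers 0 rose and 3 fell (23.1%) after Rbm43 siRNA, and 0 passed with Cre virus. Between Cre plus knockdown and control cells 0 macrophage markers rose and 1 fell. Of the 6 endothelial markers tested 1 rose there, and 0 passed in the other comparisons.

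After Rbm43 siRNA, in knockdown against control cells, the synthetic pathway rose from citrate cleavage to fatty acid synthase, and the regulators rose with it. Of the 35 members 20 rose, 4 fell and 11 did not pass the threshold, an adjusted p under 0.05 from limma with Benjamini-Hochberg adjustment over all genes tested. Over all 14211 genes, 13.5% rose and 9.76% fell (1914 and 1387 genes). Scaled to equal totals 1676 rose and 1677 fell, and by the upper quartile 1725 and 1593, while 20 members rose and 4 fell under both. The median log2 fold change was 0.24 over the members and −0.01 over all genes. Every one of the 6 fatty acid synthesis genes and the 5 regulators rose, against 3 of the 9 elongases and desaturases, 1 of the 3 genes of glycerol supply and 5 of the 12 genes of esterification. Without a mean-variance trend in limma 14 members passed, and Me1, Scd2, Fads1, Srebf1, Mlx, Mid1ip1, Pck1, Aqp7, Dgat1 and Pnpla3 did not.

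With Cre virus, in Cre plus knockdown against knockdown cells, most members that passed the threshold fell. Of the 35 members 16 fell, 1 rose and 18 did not pass. Over all genes tested, 5.88% fell and 2.62% rose (836 and 372 genes), and with libraries scaled to equal totals 734 fell and 565 rose. The median log2 fold change was −0.16 over the members and 0.00 over all genes. With knockdown replicate 1 left out 12 members fell, and 11 with replicate 2 left out. With Cre plus knockdown replicate 1 or 2 left out, 7 and 8 fell. Without a mean-variance trend in limma, 0 of the 35 members passed, with 19 at an unadjusted p under 0.05. On the recovered reads edgeR called 18, with 23 at an unadjusted p under 0.05, and DESeq2 called 16, with 19. With no filter on low counts 11 fell, and Acly, Acaca, Pck1, Agpat2, Dgat1 and Lpin3 missed the threshold.

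The 2 comparisons share the knockdown libraries, which stand on opposite sides of them, so opposite signs are in part built in. The difference between Cre plus knockdown and control cells shares libraries with both. There 12 members rose, 5 fell (4 with no filter on low counts, without Mogat1) and 18 did not pass, against 8.47% of all genes tested that rose and 6.28% that fell. The median was 0.08 over the members and 0.00 over all genes. Without the trend 8 members passed, and Acly, Elovl3, Fads1, Mid1ip1, Gpd1, Pck1, Agpat2, Agpat3 and Lpin1 did not.

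**Figure D1:**
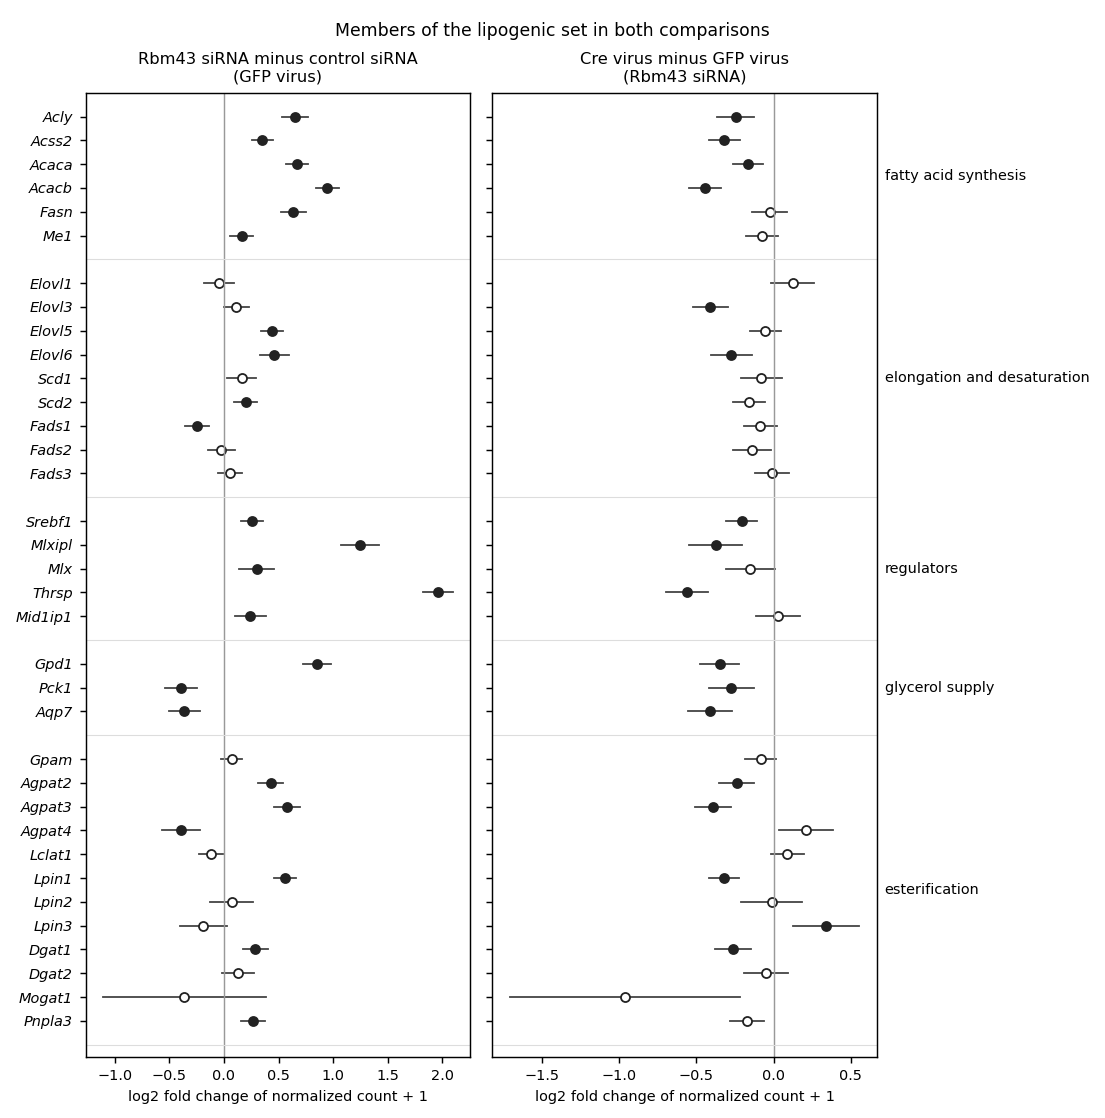
Log2 fold change of normalized count + 1 (horizontal axis) for the 35 members by role, knockdown against control cells on the left and Cre plus knockdown against knockdown cells on the right. Points are estimates and lines their 95% intervals from limma, and filled points passed an adjusted p under 0.05; the fatty acid synthesis genes and regulators lie right of 0 in the left panel, and Lpin3 is the only filled point right of 0 in the right panel.

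**Figure D2:**
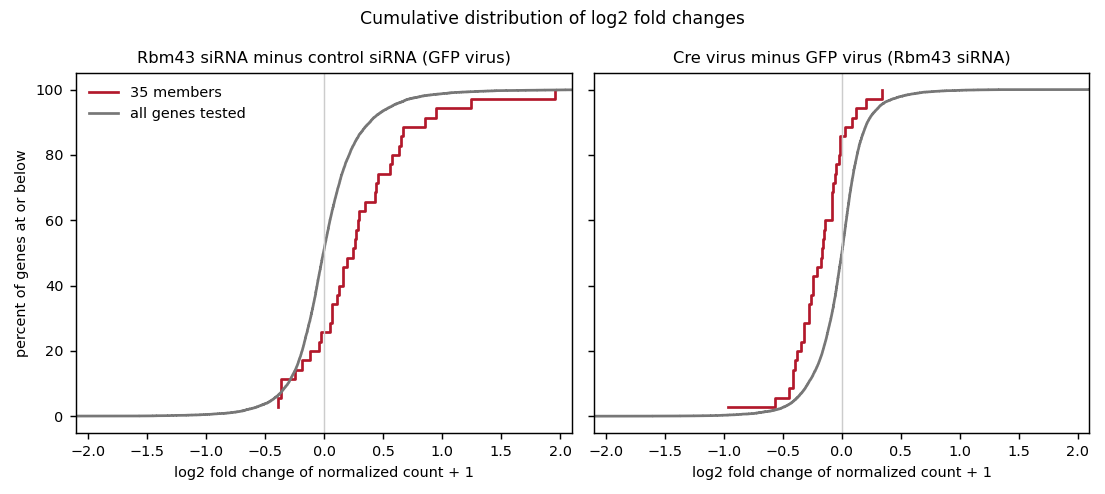
Cumulative percent of genes (vertical axis) at or below each log2 fold change (horizontal axis), for the 35 members in red and all 14211 genes tested in grey. The members' curve lies right of the grey curve over most of the left panel (median 0.24 against −0.01) and left of it in the right panel (median −0.16 against 0.00).

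All 6 fatty acid synthesis genes rose after Rbm43 siRNA, with a median log2 fold change of 0.64, 4 fell with Cre virus, and 4 were higher in Cre plus knockdown than in control cells. Acly (chr11:100476353-100528000 on GRCm38), ATP citrate lyase, which makes cytosolic acetyl-CoA from citrate, had 22132 and 23790 normalized counts in Cre plus knockdown cells and 28736 and 25703 in knockdown cells, against 18008 and 16649 in control cells. The 3 groups did not overlap, with knockdown highest and control lowest. Acly rose by 0.65 ± 0.06 on the log2 scale (SE; adjusted p = 1.11e-07) after Rbm43 siRNA and fell by 0.24 ± 0.06 with Cre virus (adjusted p = 0.0102).

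The acetyl-CoA carboxylases, which make malonyl-CoA, followed the same order. Acaca (chr11:84129672-84401651), the cytosolic form that feeds synthesis, had 20785 and 21909 normalized counts in Cre plus knockdown cells and 23481 and 24316 in knockdown cells, against 15030 and 15007 in control cells. Acacb (chr5:114146535-114250761), whose malonyl-CoA is known to restrain fatty acid entry into mitochondria, had 3780 and 3941 in Cre plus knockdown cells and 5244 and 5244 in knockdown cells, against 2817 and 2633 in control cells. The groups were apart for both genes. Acaca rose by 0.67 ± 0.05 (adjusted p = 6.49e-09) and Acacb by 0.95 ± 0.05 (adjusted p = 1.89e-10) after Rbm43 siRNA. With Cre virus Acacb fell by 0.44 ± 0.05 (adjusted p = 1.77e-05) and Acaca by 0.16 ± 0.05 (adjusted p = 0.0346).

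Fasn, fatty acid synthase, rose after Rbm43 siRNA and did not pass the threshold with Cre virus. It had 94656 and 95947 normalized counts in Cre plus knockdown cells and 95857 and 98139 in knockdown cells, against 64920 and 60002 in control cells. The Cre plus knockdown and knockdown libraries overlapped, and all 4 lay above both control libraries. Fasn rose by 0.64 ± 0.05 after Rbm43 siRNA (adjusted p = 5.75e-08). Its difference with Cre virus was −0.03 ± 0.05 (95% interval −0.14 to 0.09; adjusted p = 0.846), and it was 0.61 ± 0.05 higher in Cre plus knockdown than in control cells (adjusted p = 2.16e-07). Whether Fasn differed from the other 5 genes of this role was not tested.

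The remaining genes of this role supply acetyl-CoA and NADPH. Acss2, which makes acetyl-CoA from acetate, rose by 0.35 ± 0.05 after Rbm43 siRNA (adjusted p = 1.51e-05) and fell by 0.32 ± 0.05 with Cre virus (adjusted p = 0.000215). Its counts in Cre plus knockdown cells (10496 and 10823) were near those of control cells (10726 and 10106), with a difference of 0.03 (95% interval −0.06 to 0.13). Me1, malic enzyme, a cytosolic source of NADPH, rose by 0.16 ± 0.05 (adjusted p = 0.0226). Among these genes the fall of Acly with Cre virus missed the threshold without knockdown replicate 1 (−0.16), Cre plus knockdown replicate 1 (−0.19) or replicate 2 (−0.30), and that of Acaca without any single library of the 2 groups (−0.20 to −0.13) and with upper-quartile (−0.15) or total scaling (−0.14). The rise of Me1 missed it without either knockdown library (0.14 and 0.18) or either Cre plus knockdown library (0.16 each), with no filter and with only the 2 groups fitted.

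**Figure D3:**
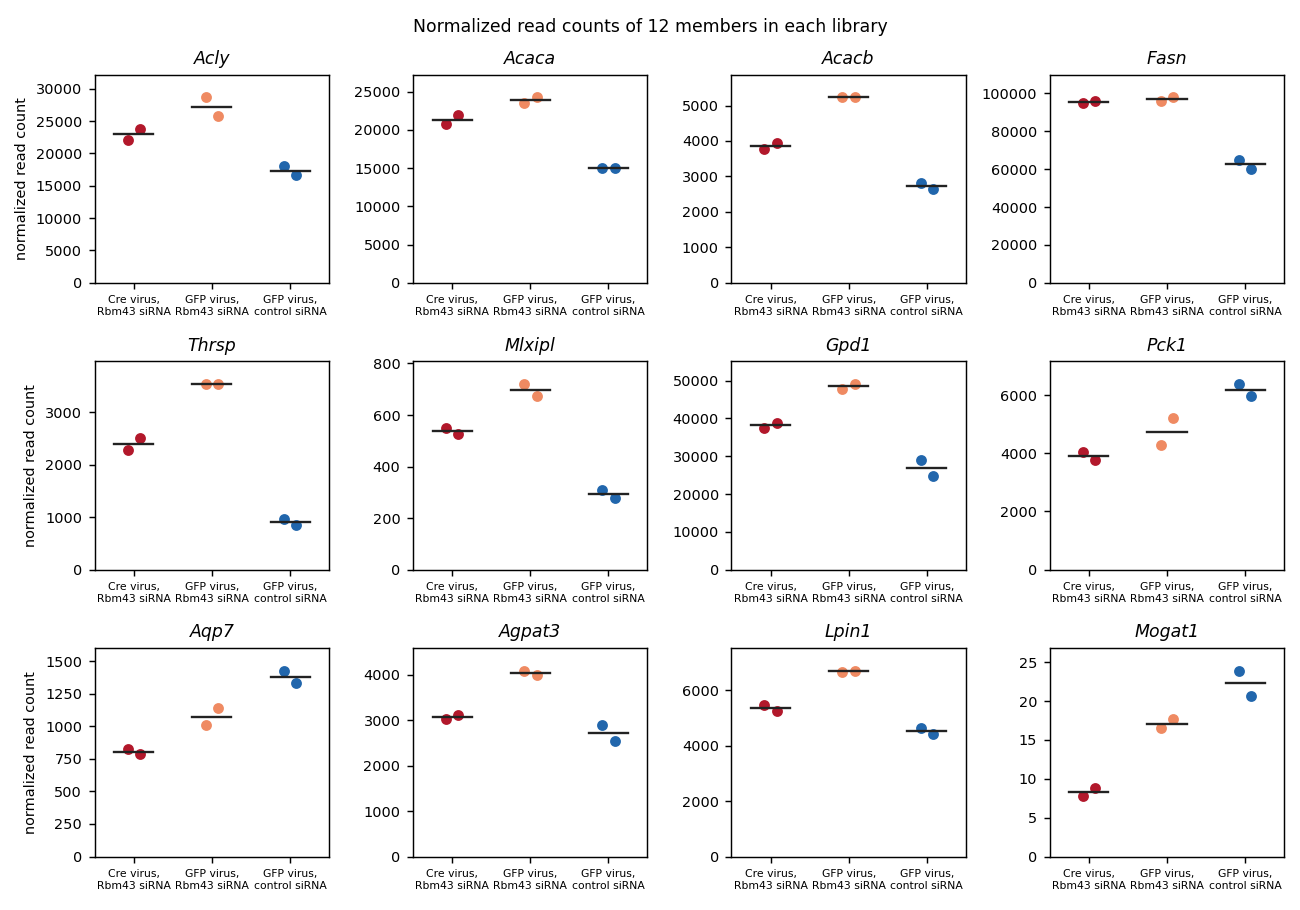
Normalized read counts (vertical axes from 0) of 12 members in each library, with Cre plus knockdown, knockdown and control cells from left to right; points are libraries and bars the mean of 2. Fasn libraries of Cre plus knockdown and knockdown cells overlap, Thrsp and Mlxipl are highest in knockdown and lowest in control cells, and Pck1, Aqp7 and Mogat1 are highest in control cells.

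Among the regulators, Thrsp and Mlxipl had the largest changes of all 35 members after Rbm43 siRNA. Thrsp, also called Spot 14, is a nuclear and cytosolic protein of lipogenic tissues whose transcription responds to thyroid hormone and carbohydrate. It had 2285 and 2513 normalized counts in Cre plus knockdown cells and 3529 and 3542 in knockdown cells, against 971 and 850 in control cells. The groups were far apart, with Cre plus knockdown cells between the others. Thrsp rose by 1.96 ± 0.06 after Rbm43 siRNA (adjusted p = 3.85e-13) and fell by 0.56 ± 0.06 with Cre virus (adjusted p = 1.86e-05), and it was 1.40 ± 0.06 higher in Cre plus knockdown than in control cells (adjusted p = 4.26e-11).

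Mlxipl, which encodes ChREBP, had 550 and 526 normalized counts in Cre plus knockdown cells and 721 and 674 in knockdown cells, against 311 and 278 in control cells. It rose by 1.24 ± 0.08 after Rbm43 siRNA (adjusted p = 3.66e-09) and fell by 0.37 ± 0.08 with Cre virus (adjusted p = 0.00578), and no library of a group overlapped another group. Gene counts do not separate the transcripts from the listed starts of Mlxipl, so the alpha and beta forms of ChREBP are summed. Its partner Mlx rose by 0.30 ± 0.08 (adjusted p = 0.00693). Srebf1, whose SREBP-1a and SREBP-1c transcripts are likewise summed, had 3742 and 3794 normalized counts in Cre plus knockdown cells and 4411 and 4277 in knockdown cells, against 3711 and 3543 in control cells. Srebf1 rose by 0.26 ± 0.05 (adjusted p = 0.000525) and fell by 0.21 ± 0.05 with Cre virus (adjusted p = 0.0102).

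Mid1ip1, the paralog of Thrsp and an activator of acetyl-CoA carboxylase, changed less. It rose by 0.24 ± 0.07 after Rbm43 siRNA (adjusted p = 0.0125), and its difference with Cre virus was 0.03 ± 0.07 (adjusted p = 0.866). The ratio of Thrsp to Mid1ip1, per kb of exon, was 2.65 and 2.69 in Cre plus knockdown cells and 3.90 and 4.13 in knockdown cells, against 1.31 and 1.14 in control cells. Exons of a gene on the opposite strand overlap 25.5% of the exon length of Mid1ip1 and 19.3% of that of Mlx, and how strand was used in counting is not given in the sources used here. The fall of Mlxipl with Cre virus missed the threshold without knockdown replicate 1 (−0.33) or either Cre plus knockdown library (−0.41 and −0.34), and that of Srebf1 without the same libraries (−0.18, −0.20 and −0.21). The rise of Mlx missed it without control replicate 2 (0.20) or knockdown replicate 2 (0.29), and that of Mid1ip1 without knockdown replicate 1 (0.20) and in DESeq2 (0.24).

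Chain elongation and desaturation had small median changes. Of 9 genes 3 rose (33.3%) and 1 fell (11.1%) after Rbm43 siRNA (median 0.11), against 13.5% and 9.76% of all genes. With Cre virus 2 fell (22.2%, median −0.08), against 5.88%. Between Cre plus knockdown and control cells 1 rose (11.1%) and 2 fell (22.2%), against 8.47% and 6.28%. Elovl6, which lengthens palmitate to stearate, had 846 and 857 normalized counts in Cre plus knockdown cells and 1041 and 1018 in knockdown cells, against 771 and 725 in control cells. It rose by 0.46 ± 0.06 after Rbm43 siRNA (adjusted p = 2.36e-05) and fell by 0.27 ± 0.06 with Cre virus (adjusted p = 0.00931). Elovl5, which lengthens polyunsaturated chains, had 3679 and 3789 in Cre plus knockdown cells and 3889 and 3861 in knockdown cells, against 2831 and 2869 in control cells. Its log2 differences were 0.44 ± 0.05 after Rbm43 siRNA (adjusted p = 1.29e-06), −0.05 with Cre virus (95% interval −0.15 to 0.05), and 0.39 ± 0.05 above control in Cre plus knockdown cells (adjusted p = 1.25e-05).

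Elovl3, an elongase of saturated and monounsaturated chains that cold induces in brown fat, had 3690 and 3979 normalized counts in Cre plus knockdown cells and 4906 and 5282 in knockdown cells, against 4852 and 4567 in control cells. Both Cre plus knockdown libraries lay below the other 4. Its difference after Rbm43 siRNA was 0.11 ± 0.05 (adjusted p = 0.149). With Cre virus it fell by 0.41 ± 0.05 (adjusted p = 7.49e-05), and it was below control in Cre plus knockdown cells by −0.30 ± 0.05 (adjusted p = 0.00077), where the call was lost without Cre plus knockdown replicate 1 (−0.24). The sum of brown adipocyte markers in those cells was above control.

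The stearoyl-CoA desaturases, which add the first double bond to saturated chains, changed by less than 0.2 on the log2 scale. Scd1 had 432490 and 416480 normalized counts in Cre plus knockdown cells and 450240 and 445790 in knockdown cells, against 401700 and 399020 in control cells. Its difference after Rbm43 siRNA was 0.16 ± 0.06 (adjusted p = 0.0694), which edgeR (adjusted p = 0.00239) and DESeq2 (adjusted p = 0.00302) called on the recovered reads. Scd2 rose by 0.20 ± 0.05 (adjusted p = 0.00556), a call lost without knockdown replicate 1 (0.17), and its difference with Cre virus was −0.16 ± 0.05 (adjusted p = 0.0503), which edgeR (adjusted p = 0.0181) and DESeq2 (adjusted p = 0.0105) called. How reads that fit both of these paralogs were counted is not stated.

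The front-end desaturases of polyunsaturated chains did not follow the synthetic genes. Fads1 had 3274 and 3241 normalized counts in Cre plus knockdown cells and 3611 and 3303 in knockdown cells, against 4126 and 4074 in control cells. It fell by 0.25 ± 0.05 after Rbm43 siRNA (adjusted p = 0.00147) and was lower in Cre plus knockdown than in control cells by −0.33 ± 0.05 (adjusted p = 0.000153). For Fads2 and Fads3, and for Elovl1, an elongase of very long saturated chains, log2 differences lay between −0.16 and 0.12 in the 3 comparisons and none passed. The fall of Elovl6 with Cre virus missed the threshold without any single library of the 2 groups (−0.29 to −0.26).

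Glycerol supply split. Gpd1 (chr15:99717515-99725005), which reduces dihydroxyacetone phosphate from glycolysis to glycerol 3-phosphate, had 37503 and 38833 normalized counts in Cre plus knockdown cells and 47905 and 49202 in knockdown cells, against 29092 and 24796 in control cells. The groups did not overlap. Gpd1 rose by 0.85 ± 0.06 after Rbm43 siRNA (adjusted p = 7.26e-09) and fell by 0.35 ± 0.06 with Cre virus (adjusted p = 0.000931), a fall that missed the threshold without Cre plus knockdown replicate 1 (−0.32). An opposite-strand gene overlaps 13.0% of the exon length of Gpd1.

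Pck1 (chr2:173153048-173159273), the enzyme of glyceroneogenesis, which makes the same backbone from pyruvate and amino acids, went the other way after Rbm43 siRNA. It had 4047 and 3770 normalized counts in Cre plus knockdown cells and 4278 and 5202 in knockdown cells, against 6393 and 5984 in control cells. Pck1 fell by 0.39 ± 0.07 after Rbm43 siRNA (adjusted p = 0.000323) and by 0.27 ± 0.07 with Cre virus (adjusted p = 0.0163), and was lower in Cre plus knockdown than in control cells by −0.66 ± 0.07 (adjusted p = 1.8e-06). The knockdown duplicates were far apart. Without replicate 1 the differences were −0.25 after Rbm43 siRNA and −0.41 with Cre virus, and without replicate 2 the fall with Cre virus was −0.13 and missed the threshold, as it did without either Cre plus knockdown library (−0.32 and −0.22) and in DESeq2.

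Aqp7 (chr4:41033074-41048139), the glycerol channel of the adipocyte membrane, had 823 and 785 normalized counts in Cre plus knockdown cells and 1008 and 1137 in knockdown cells, against 1428 and 1329 in control cells. It fell by 0.36 ± 0.07 after Rbm43 siRNA (adjusted p = 0.000577), by 0.41 ± 0.07 with Cre virus (adjusted p = 0.0006), and was 0.78 lower in Cre plus knockdown than in control cells (log2 difference −0.78 ± 0.07; adjusted p = 2.25e-07). Per kb of exon, Gpd1 counts were 10.7 and 11.9 times those of Pck1 in Cre plus knockdown cells and 13.0 and 10.95 times in knockdown cells, against 5.27 and 4.80 times in control cells. Cre plus knockdown and knockdown libraries overlapped in this ratio, and all 4 lay above control.

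Of the 12 esterification genes 5 rose (41.7%) and 1 fell (8.33%) after Rbm43 siRNA (median 0.10), against 13.5% and 9.76% of all genes. With Cre virus 1 rose (8.33%) and 4 fell (33.3%, median −0.13), against 2.62% and 5.88%. Between Cre plus knockdown and control cells 3 rose (25%) and 1 fell (8.33%), against 8.47% and 6.28%. The 1 that fell there was Mogat1, tested only because knockdown and control cells reached the filter. Gpam, the mitochondrial acyltransferase that opens the pathway, was nearly level: 0.07 ± 0.05 after Rbm43 siRNA (95% interval −0.03 to 0.17) and −0.08 ± 0.05 with Cre virus (95% interval −0.18 to 0.01).

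The next step is acylation of lysophosphatidic acid. Agpat2, the main adipocyte form, whose loss in humans causes lipodystrophy, had 16572 and 17317 normalized counts in Cre plus knockdown cells and 19882 and 20110 in knockdown cells, against 15867 and 13916 in control cells. Agpat3 (chr10:78269178-78352489) had 3039 and 3128 in Cre plus knockdown cells and 4096 and 3993 in knockdown cells, against 2894 and 2552 in control cells. Agpat2 rose by 0.43 ± 0.06 (adjusted p = 9.83e-06) and Agpat3 by 0.57 ± 0.06 (adjusted p = 4.51e-07) after Rbm43 siRNA. With Cre virus Agpat2 fell by 0.24 ± 0.06 (adjusted p = 0.00852) and Agpat3 by 0.39 ± 0.06 (adjusted p = 0.000182).

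Both were higher in Cre plus knockdown than in control cells, by 0.19 ± 0.06 (Agpat2, adjusted p = 0.0255) and 0.18 ± 0.06 (Agpat3, adjusted p = 0.0366). Without control replicate 1 these differences were 0.28 and 0.27. They missed the threshold without control replicate 2 (0.09 each), Cre plus knockdown replicate 1 (0.22 and 0.20) or replicate 2 (0.16 each), and with no filter, as did Agpat3 in DESeq2. The fall of Agpat2 with Cre virus missed it without knockdown replicate 2 (−0.23) or either Cre plus knockdown library (−0.21 and −0.27).

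Agpat4, which encodes a further acyltransferase of this family, had 392 and 432 normalized counts in Cre plus knockdown cells and 362 and 350 in knockdown cells, against 461 and 472 in control cells. It fell by 0.39 ± 0.08 after Rbm43 siRNA (adjusted p = 0.00185), and its difference with Cre virus was 0.21 ± 0.08 (adjusted p = 0.147). The ratio of Agpat4 to Agpat2 per kb of exon was 0.0186 and 0.0197 in Cre plus knockdown cells and 0.0144 and 0.0137 in knockdown cells, against 0.0229 and 0.0268 in control cells, with no overlap between groups. Lclat1, a lysocardiolipin acyltransferase, differed by −0.12 ± 0.05 after Rbm43 siRNA (adjusted p = 0.112).

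The lipins turn phosphatidate into diacylglycerol. Lpin1 (chr12:16535669-16610966) had 5450 and 5233 normalized counts in Cre plus knockdown cells and 6636 and 6702 in knockdown cells, against 4642 and 4426 in control cells, and the groups were apart. It rose by 0.56 ± 0.05 after Rbm43 siRNA (adjusted p = 6.73e-08) and fell by 0.32 ± 0.05 with Cre virus (adjusted p = 0.000222). Lpin3 had 249 and 250 in Cre plus knockdown cells and 193 and 201 in knockdown cells, against 231 and 218 in control cells. It was the only member that rose with Cre virus, by 0.34 ± 0.10 (adjusted p = 0.0458), a call missed without any single library of the 2 groups (0.31 to 0.37) and in DESeq2.

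The ratio of Lpin3 to Lpin1 per kb of exon was 0.119 and 0.125 in Cre plus knockdown cells and 0.0762 and 0.0783 in knockdown cells, against 0.130 and 0.129 in control cells. It was thus lowest in knockdown cells. Lpin2 differed by 0.07 ± 0.09 after Rbm43 siRNA and −0.01 ± 0.09 with Cre virus, and neither passed. The rise of Lpin1 in Cre plus knockdown over control cells, 0.24 ± 0.05 (adjusted p = 0.00179), missed the threshold without Cre plus knockdown replicate 1 (0.21).

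The last step is catalysed by Dgat1 and Dgat2, which are unrelated proteins. Dgat1 passed the threshold after Rbm43 siRNA and with Cre virus, and Dgat2 did not. Dgat1 had 2935 and 2971 normalized counts in Cre plus knockdown cells and 3409 and 3684 in knockdown cells, against 3046 and 2764 in control cells. It rose by 0.29 ± 0.06 after Rbm43 siRNA (adjusted p = 0.000808) and fell by 0.26 ± 0.06 with Cre virus (adjusted p = 0.00478), a fall missed without knockdown replicate 2 (−0.21) or either Cre plus knockdown library (−0.25 and −0.27). For Dgat2 the differences were 0.13 (95% interval −0.01 to 0.27) and −0.05 (95% interval −0.19 to 0.10). The intervals allow a rise in Dgat2 nearly as large as that of Dgat1, and the difference between the genes was not tested. After Rbm43 siRNA Dgat2 passed in 1 of 17 alternatives, which ran from 0.06 to 0.20.

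Pnpla3, a lipid droplet protein with lipase and acyltransferase activity, rose by 0.27 ± 0.05 after Rbm43 siRNA (adjusted p = 0.000916), and its difference with Cre virus was −0.17 ± 0.05 (adjusted p = 0.0503), which passed in 7 of 17 alternatives (lowest adjusted p = 0.00507). Mogat1 (chr1:78510991-78538173), which makes diacylglycerol from monoacylglycerol, had 7.83 and 8.78 normalized counts in Cre plus knockdown cells and 16.5 and 17.7 in knockdown cells, against 23.9 and 20.7 in control cells. It was tested only because knockdown and control cells reached the filter, so a fall in Cre plus knockdown cells is in part built into its selection. That difference was −1.32 ± 0.36 against control cells (adjusted p = 0.0157), and the other comparisons did not pass. It missed the threshold with no filter (adjusted p = 0.0558), without control replicate 1 (−1.22), without either Cre plus knockdown library (−1.25 and −1.40) and in DESeq2. An opposite-strand gene overlaps 12.8% of its exon length.

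**Figure D4:**
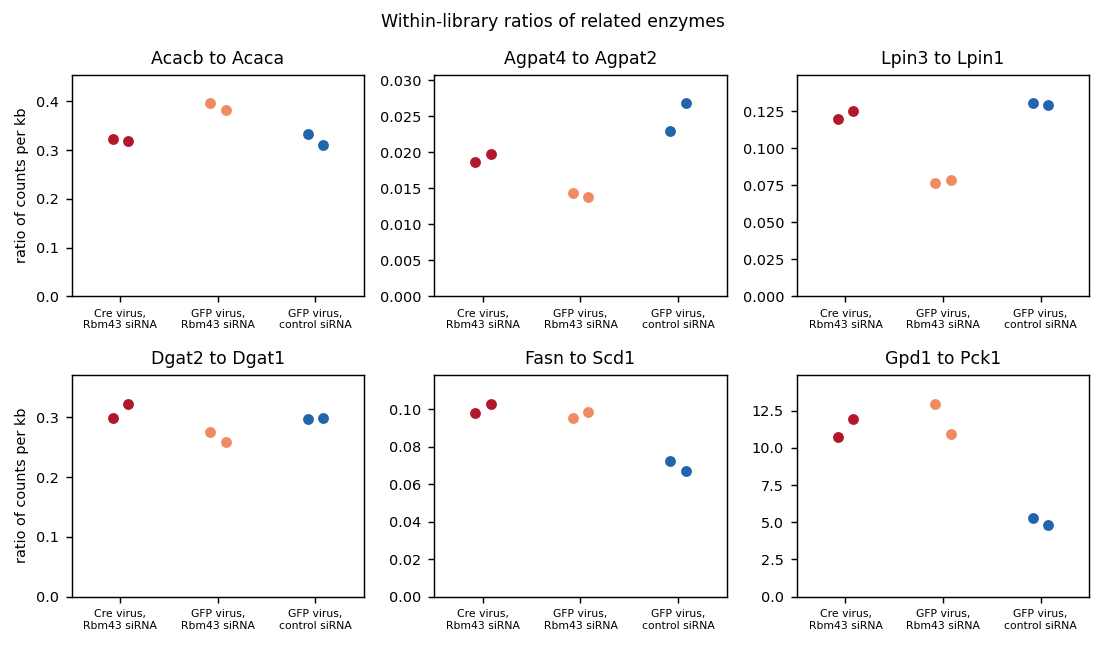
Ratios of normalized counts per kb of exon between related enzymes (vertical axes from 0), each point 1 library, with Cre plus knockdown, knockdown and control cells from left to right. Lpin3 to Lpin1 is lowest in knockdown cells (0.0762 and 0.0783), while Fasn to Scd1 and Gpd1 to Pck1 are lowest in control cells.

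Levels per length spanned a wide range. In control cells Scd1 was the highest member, at 81840 normalized counts per kb of exon, followed by Scd2 (9209), Gpd1 (9100), Agpat2 (6991) and Fasn (5706). Lpin2 (36.1) and Mogat1 (14.3) were lowest. Of the 35 members 7 lie on chromosome 19, namely Scd1, Scd2, Fads1, Fads2, Fads3, Elovl3 and Gpam, and their log2 fold changes after Rbm43 siRNA ran from −0.25 (Fads1) to 0.20 (Scd2). In Cre plus knockdown and knockdown cells Gpd1 (12890 and 16398 per kb) stood above Scd2 (9465 and 10570 per kb). Thrsp, at 1096 and 1615 per kb in Cre plus knockdown and knockdown cells, against 416 in control cells, crossed the levels of Acaca (1250 and 1400, against 880) only in knockdown cells.

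The members together took 3.98% and 3.93% of all normalized counts in Cre plus knockdown cells and 4.21% and 4.23% in knockdown cells, against 3.55% and 3.47% in control cells. Scd1 alone took 2.25% and 2.16% in Cre plus knockdown cells and 2.29% in both knockdown libraries, against 2.08% in both control libraries. The ratio of Fasn to Scd1 per kb was 0.0978 and 0.103 in Cre plus knockdown cells and 0.0951 and 0.0984 in knockdown cells, against 0.0722 and 0.0672 in control cells. That of Dgat2 to Dgat1 was 0.298 and 0.323 in Cre plus knockdown cells and 0.275 and 0.259 in knockdown cells, against 0.298 and 0.299 in control cells. These ratios are given as values and were not tested.

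**Figure D5:**
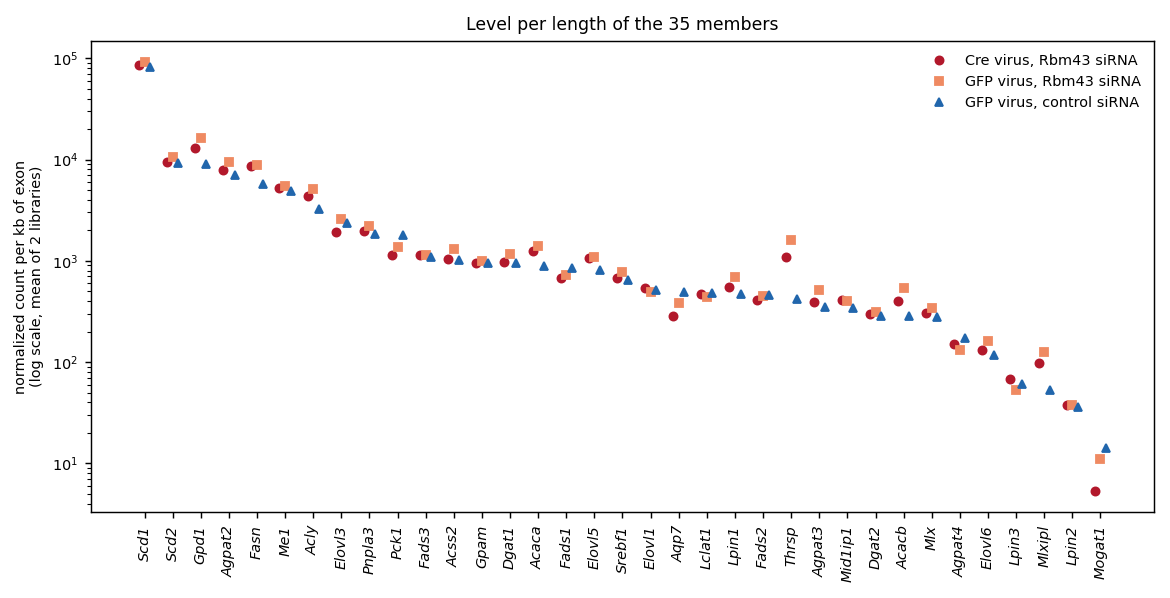
Normalized counts per kb of exon (logarithmic vertical axis, mean of 2 libraries) for the 35 members, ordered by their level in control cells, with circles for Cre plus knockdown, squares for knockdown and triangles for control cells. Scd1 lies far above the rest, at 81840 in control cells, and the groups differ visibly for Thrsp, Mlxipl, Acacb and Mogat1.

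Genes around the pathway were counted from lists chosen with earlier results of these data known. Over all genes tested, 13.5% rose and 9.76% fell after Rbm43 siRNA, and 2.62% rose and 5.88% fell with Cre virus. Of 14 genes that supply citrate and NADPH 8 rose and 0 fell after Rbm43 siRNA (median 0.17), and 8 fell and 0 rose with Cre virus (median −0.23). Mdh1, cytosolic malate dehydrogenase, rose by 0.46 and the citrate carrier Slc25a1 by 0.29, and Mdh1 fell by 0.44 with Cre virus. Of 10 other glycerolipid genes 6 rose and 0 fell after Rbm43 siRNA (median 0.23), led by glycerol kinase (Gk, 1.00) and the mitochondrial glycerol 3-phosphate dehydrogenase Gpd2 (0.71). Those 2 genes fell with Cre virus, Gk by 0.50 and Gpd2 by 0.39. Of 14 other elongation and activation genes 5 rose and 2 fell after Rbm43 siRNA, with Hacd1 up by 0.62 and Hacd2 at −0.30, and 2 fell with Cre virus.

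Of 23 upstream regulators 3 rose (13.0%) and 2 fell (8.70%) after Rbm43 siRNA (median −0.03), close to the shares over all genes (13.5% and 9.76%), and 3 fell with Cre virus. Nr1h3, which encodes LXR alpha, an activator of Srebf1, rose by 0.60, and Trib3, a pseudokinase reported to restrain lipogenesis, was at −0.67. Of 22 cholesterol synthesis genes, the other known target set of the SREBP factors, 5 rose and 1 fell after Rbm43 siRNA (median 0.00), and 0 rose and 4 fell with Cre virus (median −0.10). Between Cre plus knockdown and control cells 3 of them rose (13.6%) and 7 fell (31.8%, median −0.08), against 8.47% and 6.28% of all genes. The lists were not tested against each other.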

How the data were processed

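The table deposited by the authors gives each gene a normalized signal: its read count over a size factor of the library. Build mm10 and the tools DESeq2 2.11.40.7, STAR 2.7.8 and fastp 0.23.2 appear without roles in the submitters' processing notes. How genes were counted, with which annotation and strand setting, is not given in the sources used here. Libraries came from a stranded poly(A) kit, per the labels' protocols. Whole reads were recovered from every value (100% within 0.01 read), with 1 read worth 0.878 to 1.22 normalized counts.

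In R 4.3.3, limma 3.58.1 was run with its trend option on log2(normalized count + 1), which understates changes of low genes, with 1 mean per group and all 6 libraries in 1 fit (3 residual degrees of freedom). The trend option draws each gene's variance toward that of genes of similar level, so SEs and p-values rest in part on other genes. The fit covered 14211 genes with at least 10 normalized counts in at least 2 libraries, with Benjamini-Hochberg adjustment over all of them. The procedure was tested on simulated data. Replicates of each group differed by more than sampling noise (chi-square per degree of freedom 1.77 to 4.19) and were kept as separate libraries. Alternatives included count tests on recovered reads (DESeq2 1.42.0, edgeR 4.0.16). Exon lengths and overlaps came from GENCODE M21 and promoters from RefSeq, both on GRCm38, the mm10 assembly.

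Members, lists and tests were chosen with earlier results of these data known. Members with a log2 change of at least 0.5 that passed in any comparison are given per library, and up to 4 genes with the smallest p may be named from each other list. The adipocyte markers Adipoq, Fabp4 and Plin1 were named outside this rule, after their values were seen, so their levels do not test the labelled cell type. Zic1 was named because it was under the filter.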

Additional observations from a re-analysis of the deposited data

How the results depend on the processing

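Besides the main fit, 17 alternatives were run, and for single genes 1730 of 1881 values kept their direction and their side of the threshold. Without the mean-variance trend, 1304, 0 and 433 genes passed for Rbm43 siRNA, Cre virus and Cre plus knockdown against control, and 14, 0 and 8 members. For Cre virus 2355 genes then had an unadjusted p under 0.05, against 3150 in edgeR and 1812 in DESeq2. At an adjusted p under 0.05 edgeR called 1336 genes there and DESeq2 838. DESeq2 called 2035 and 1220 genes for Rbm43 siRNA and for Cre plus knockdown against control. With no filter 609 genes and 11 members passed for Cre virus and 1251 genes for Cre plus knockdown against control, and with only the 2 groups fitted 2083 genes passed for Cre virus. Leaving out each library gave 2115 to 3633, 312 to 2068 and 770 to 2654 genes and 21 to 27, 7 to 19 and 12 to 19 members for the 3 comparisons. A lone library was then assumed to vary like the other groups. The causes were not tested, except that fewer libraries were fitted.

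Replicate numbers did not pair the libraries (correlations of deviations 0.02, −0.04 and −0.04). With replicate number as a block, 24, 18 and 17 members and 3412, 1304 and 2214 genes passed.

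Values near 0 that had not passed changed sign in 22 cases, and the cause was not tested. With upper-quartile and total scaling these were, for Cre virus, Fads3 (0.0018 and 0.0149) and Lpin2 (9e-04 and 0.0140). With a library left out, Elovl1 ran from −0.156 to 0.0672, Fads2 from −0.0618 to 0.0129, Fads3 from −0.0128 to 0.120 and Lpin2 from −0.0035 to 0.143 for Rbm43 siRNA. For Cre virus Fads3 ran from −0.0332 to 0.0130, Mid1ip1 from −0.0318 to 0.0874, Lpin2 from −0.150 to 0.128, Dgat2 from −0.113 to 0.0179 and Rbm43 from −0.462 to 0.249. Between Cre plus knockdown and control cells Acss2 ran from −0.0092 to 0.0767, Elovl1 from −0.0333 to 0.190, Fads3 from −0.0229 to 0.110, Lclat1 from −0.0639 to 0.0079, Lpin2 from −0.0805 to 0.198 and Dgat1 from −0.0447 to 0.0952.

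Depth is lowest for Mogat1, whose changes are the least certain of the 35 members. Scaling shifted the median of all genes by at most 0.03.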

Other observations

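Genes that store or burn the fat moved beside those that make it. Of 17 lipid droplet proteins and lipases 14 rose and 0 fell after Rbm43 siRNA (median 0.34), against 13.5% and 9.76% of all genes, and 10 fell and 0 rose with Cre virus (median −0.20), against 5.88% and 2.62%. Cidea, a droplet protein of thermogenic adipocytes, rose by 2.05 and fell by 1.24 with Cre virus, Plin5, which ties droplets to mitochondria, rose by 0.87 and fell by 0.75, and the hormone-sensitive lipase Lipe fell by 0.30 with Cre virus. Of 19 genes of mitochondrial beta-oxidation 16 rose and 0 fell after Rbm43 siRNA (median 0.38), and 17 fell and 0 rose with Cre virus (median −0.40). The thiolase Acaa2 rose by 0.81 and fell by 0.67 with Cre virus, and Hadhb, a subunit of the trifunctional protein, rose by 0.56 and fell by 0.50. Between Cre plus knockdown and control cells, 8.47% of all genes rose and 6.28% fell. There 3 beta-oxidation genes rose and 5 fell (median −0.09), and 5 lipid droplet genes rose and 0 fell (median 0.12). Of the 35 members 12 rose and 5 fell (median 0.08). Among them, 4 of the 6 fatty acid synthesis genes rose and 0 fell (median 0.45). Medians of the other roles were 0.27 for regulators, 0.07 for esterification, 0.04 for elongation and desaturation and −0.66 for glycerol supply. The comparisons share libraries, and the lists were not tested against each other.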
